A study of Homo sapiens with 16 samples.

Results

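UXT encodes a small prefoldin-like protein, and the genes described here are UXT with 8 genes for prefoldin subunits or their relatives. Members were taken by symbol: UXT, URI1, PDRG1, PFDN1, PFDN2, PFDN4, PFDN5, PFDN6 and VBP1. All 9 were listed among the 28502 gene symbols of the RNA-seq tables, and 8 of them were above 0. The cells were HCT116, an established human colorectal carcinoma line. They carried a small interfering RNA (siRNA) against UXT (siUXT), one against EZH1 (siEZH1) or the control labelled NC, and each transfection was sampled under tumour necrosis factor (TNF) and under PBS. The groups were siUXT TNF, siUXT PBS, siEZH1 TNF, siEZH1 PBS, NC TNF and NC PBS, with 1 library each. The labels do not spell out the letters NC, and they give no TNF dose or time. Both knockdowns were set against the same NC libraries. Since the libraries are bulk RNA, fewer cells of a kind and less RNA per cell cannot be told apart. The series also holds 10 chromatin samples, which were not analysed here.

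Prefoldin is a jellyfish-shaped chaperone of alpha-class and beta-class subunits that captures unfolded actin and tubulin and passes them to the chaperonin CCT. VBP1 (prefoldin 3) and PFDN5 are its alpha-class subunits, and PFDN1, PFDN2, PFDN4 and PFDN6 its beta-class subunits. UXT and URI1, both alpha-class-like, join PDRG1 and the shared subunits PFDN2 and PFDN6 in a second, prefoldin-like complex. That complex works with R2TP, a cochaperone of HSP90, in assembling RNA polymerases and other large machines. UXT is also known as a nuclear cofactor of NF-kB and of the androgen receptor, and the series title places it with EZH1 and SUZ12 at NF-kB target genes.

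The promoters below are those of UXT, the siRNA target, of URI1, VBP1 and PFDN4, the members lower in siUXT PBS, and of PFDN5, the most abundant member. Each covers 250 bases before to 50 after the most downstream start in RefSeq (GRCh38.p14), 5′ to 3′. Capitals mark matches to 7 promoter motifs on either strand.
UXT promoter, chrX:47659131-47659430, minus strand: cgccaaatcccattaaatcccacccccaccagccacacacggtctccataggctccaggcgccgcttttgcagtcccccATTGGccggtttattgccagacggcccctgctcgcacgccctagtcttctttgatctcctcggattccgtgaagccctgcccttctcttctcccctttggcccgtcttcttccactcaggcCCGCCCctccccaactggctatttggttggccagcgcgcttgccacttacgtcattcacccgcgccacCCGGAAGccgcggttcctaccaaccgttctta
URI1 promoter, chr19:29941989-29942288, plus strand: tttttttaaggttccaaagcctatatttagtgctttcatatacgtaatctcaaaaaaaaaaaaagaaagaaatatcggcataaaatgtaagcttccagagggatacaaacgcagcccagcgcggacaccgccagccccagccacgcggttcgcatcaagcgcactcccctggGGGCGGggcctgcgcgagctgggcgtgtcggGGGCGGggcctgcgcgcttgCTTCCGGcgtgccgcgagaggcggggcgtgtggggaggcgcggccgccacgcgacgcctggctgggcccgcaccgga
VBP1 promoter, chrX:155216210-155216509, plus strand: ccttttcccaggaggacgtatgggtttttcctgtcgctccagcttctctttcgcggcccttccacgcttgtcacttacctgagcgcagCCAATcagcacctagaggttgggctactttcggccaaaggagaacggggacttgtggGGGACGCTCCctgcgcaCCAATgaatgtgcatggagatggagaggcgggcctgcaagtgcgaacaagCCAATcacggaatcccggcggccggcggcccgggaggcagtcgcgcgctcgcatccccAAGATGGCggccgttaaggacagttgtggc
PFDN4 promoter, chr20:54207837-54208136, plus strand: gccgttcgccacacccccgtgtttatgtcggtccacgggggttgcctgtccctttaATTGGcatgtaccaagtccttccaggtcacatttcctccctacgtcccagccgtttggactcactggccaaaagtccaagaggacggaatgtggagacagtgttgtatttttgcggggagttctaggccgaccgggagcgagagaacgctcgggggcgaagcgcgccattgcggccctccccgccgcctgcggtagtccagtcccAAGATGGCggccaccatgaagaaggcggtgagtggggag
PFDN5 promoter, chr12:53295292-53295591, plus strand: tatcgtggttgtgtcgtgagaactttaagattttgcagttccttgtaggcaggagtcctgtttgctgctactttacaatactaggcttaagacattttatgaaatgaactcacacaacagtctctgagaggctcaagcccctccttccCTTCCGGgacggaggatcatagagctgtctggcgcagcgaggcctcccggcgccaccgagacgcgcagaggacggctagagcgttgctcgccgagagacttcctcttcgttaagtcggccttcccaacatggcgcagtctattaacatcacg
The motifs were AAGATGGC for YY1, CCGGAAG for ETS factors, GGGCGG for the GC box, CCAAT for the CCAAT box, TATAAA for the TATA box, the NRF1 consensus and the NF-kB consensus, and no matches overlapped in the windows printed. Promoter sequence was at hand for 8 of the 9 members, with PFDN2 the exception. AAGATGGC stood in the promoters of VBP1, PFDN4 and PFDN1, against 3.04% of 27305 promoters. CCGGAAG was matched in UXT, URI1, PDRG1, PFDN5 and PFDN6, against 10.5% of all promoters. A CCAAT match was present in UXT, VBP1 and PFDN4 (35.4% of all), a GC box in UXT, URI1, PDRG1 and PFDN1 (43.4%) and the NRF1 consensus in PDRG1 and PFDN1 (5.88%). TATAAA was in none of the 8 promoters (12.3% of all), and the NF-kB consensus was matched in VBP1 alone (10.8% of all). These matches describe letters in the windows. The motifs were chosen after values were seen, and no link between a match and a ratio was tested.

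Expression was given as FPKM, a fragment count divided by transcript length and library size, so levels of different genes can be set side by side. Summed over all symbols, the libraries held 617998 to 649481 FPKM. The number of reads is not given, but steps among the lowest values gave siEZH1 TNF a depth of 0.720 and NC TNF one of 0.719, taking NC PBS as 1, with the rest between 0.949 and 1.02. Of 8 colorectal epithelial markers, EPCAM, CDH1, KRT8, KRT18, KRT19 and CDX2 were above 6 FPKM in every library, and VIL1 and CDX1 were at or near 0. The KRT19 values are shared with the symbol JUP. Of 4 leukocyte, 3 endothelial and 4 fibroblast markers, 10 stayed under 0.4 FPKM, and COL1A1 was at 5.04 to 8.26 FPKM. The siUXT PBS library stood apart: of the 11845 loci whose mean reached 1 FPKM, 16.4% were at least 1.5-fold lower there than in NC PBS, against 3.06% in the TNF pair. Member estimates that use siUXT PBS are therefore also given without it, and partner genes singled out in it are given in the TNF pair too.

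UXT, the gene the siRNA was aimed at, was lower in both siUXT libraries than in any other library. It stood at 24.6 FPKM in siUXT TNF and 27.7 in siUXT PBS, at 77.1 in siEZH1 TNF and 64.9 in siEZH1 PBS, and at 59.6 in NC TNF and 62.2 in NC PBS. The siUXT values do not overlap the other 4, though the share of all loci for which this holds was not counted. The mean was 26.1 ± 2.20 FPKM in siUXT against 60.9 ± 1.88 in NC (SD, n = 2 libraries each). The ratio to the matched NC library was 0.412 under TNF and 0.445 under PBS. Under TNF only 29 of 11845 loci had a lower log2 ratio than UXT, and under PBS 529 had. These ratios check the label siUXT, and residual UXT message was measured in both libraries.

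Over both treatments the siUXT difference for UXT was -1.19 on the log2(FPKM + 1) scale (SE 0.18, 95% interval -1.63 to -0.75), with an unadjusted limma p of 4.7e-04 and a Benjamini-Hochberg adjusted p of 0.69. UXT was thus not called at an adjusted p under 0.05. In this additive limma fit of transfection and treatment over the 6 libraries, 0.0253% of loci were called higher and 0.0169% lower for siUXT. Whether UXT was called depended on the library left out. Each of the 6 fits that left out a library kept a single library of that transfection, so only the estimate is given. The estimate lay between -1.32 and -1.06 in these 6 fits.

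UXT-AS1, a long non-coding RNA gene whose span overlaps that of UXT in RefSeq, was also lower in siUXT. It is listed as LOC100133957, with the same gene number as UXT-AS1 in RefSeq. It was at 0.581 FPKM in siUXT TNF and listed at 0 in siUXT PBS, at 2.42 in siEZH1 TNF and 2.43 in siEZH1 PBS, and at 3.18 in NC TNF and 3.24 in NC PBS. Both siUXT values lie below the other 4, though the share of all loci that do was not counted. The limma estimate for siUXT was -1.74 (SE 0.25, 95% interval -2.34 to -1.14; Benjamini-Hochberg adjusted p = 0.53). With a pseudocount of 0.1 it was -3.67 (limma adjusted p = 0.90). Its size thus depends on the pseudocount set beside a value listed at 0. In the 6 fits that left out a library the estimate lay between -2.08 and -1.41. The strand setting is not given, so reads of UXT and UXT-AS1 cannot be told apart.

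**Figure D1:**
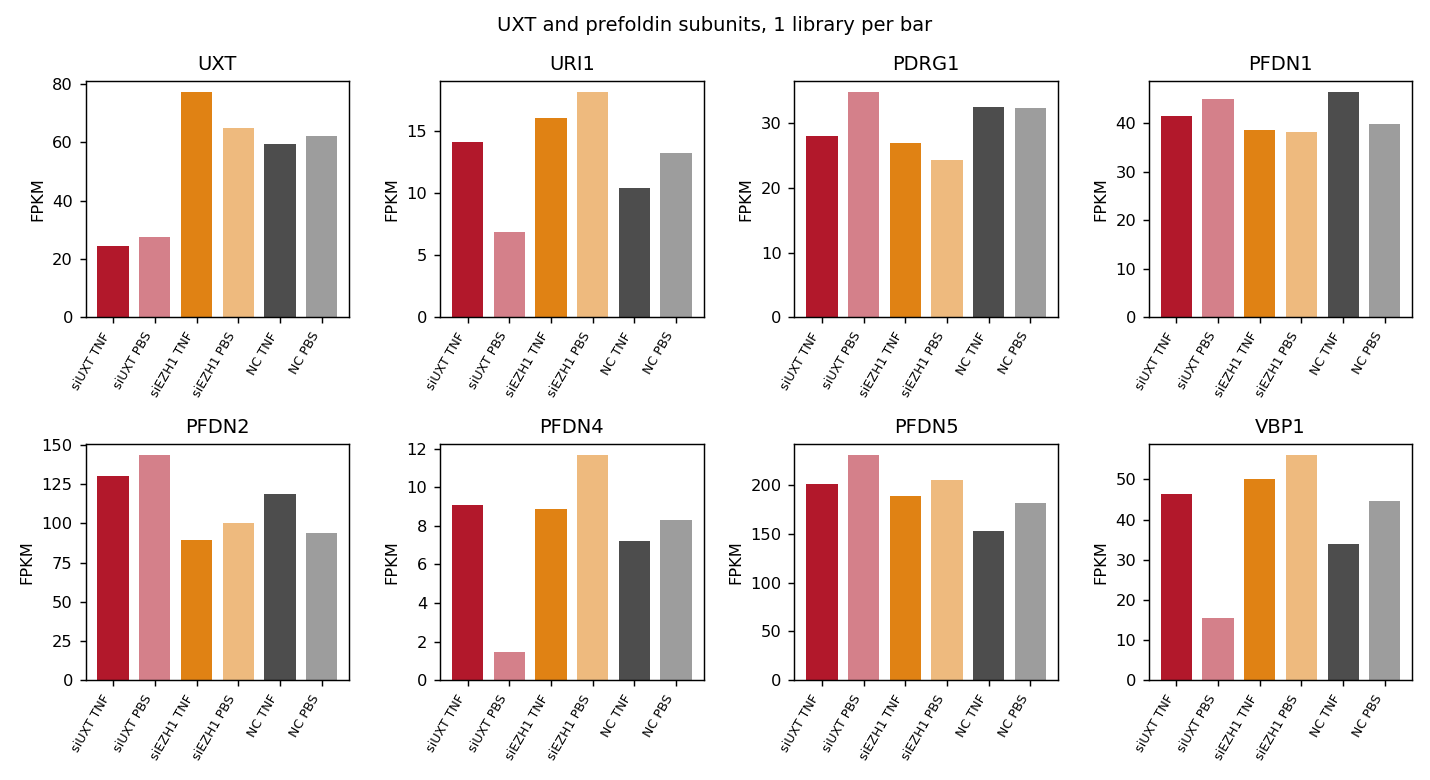
FPKM of the 8 members above 0 in each of the 6 libraries (bars, 1 library each; y axes start at 0 and differ in scale; dark bars TNF, pale bars PBS). UXT is low in both siUXT libraries, at 24.6 and 27.7 FPKM, whereas URI1, PFDN4 and VBP1 are low in siUXT PBS and not in siUXT TNF.

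Among the members that share the prefoldin-like complex with UXT and were above 0, none was lower in both siUXT libraries by as much as 1.5-fold. How many of all loci were lower in both was not counted. In single pairs the share was 3.06% under TNF and 16.4% under PBS. URI1, the RNA polymerase subunit RPB5 interactor and large scaffold of the complex, was at 14.1 FPKM in siUXT TNF and 6.83 in siUXT PBS, at 16.0 in siEZH1 TNF and 18.1 in siEZH1 PBS, and at 10.4 in NC TNF and 13.2 in NC PBS. Its value in siUXT PBS is the lowest of the 6, and its value in siUXT TNF lies above both NC values. The log2 ratio to NC was 0.41 under TNF and -0.86 under PBS, and the limma estimate over both was -0.22 (95% interval -1.01 to 0.56; Benjamini-Hochberg adjusted p = 0.94). Without siUXT PBS the estimate was 0.37, and without siUXT TNF it was -0.82.

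PDRG1, a beta-class-like subunit first described as a gene regulated by p53 and DNA damage, varied little. It was at 28.0 FPKM in siUXT TNF and 34.8 in siUXT PBS, at 26.96 in siEZH1 TNF and 24.4 in siEZH1 PBS, and at 32.5 in NC TNF and 32.4 in NC PBS. The 2 siUXT values lie on either side of both NC values. The 2 siEZH1 values are the lowest of the 6, though the share of all loci for which this holds was not counted. The limma estimate was -0.05 for siUXT (95% interval -0.51 to 0.41; Benjamini-Hochberg adjusted p = 0.98) and -0.24 without siUXT PBS.

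PFDN2, the beta subunit that both complexes use, was at 130 FPKM in siUXT TNF and 144 in siUXT PBS, at 89.3 in siEZH1 TNF and 100.1 in siEZH1 PBS, and at 118 in NC TNF and 94.0 in NC PBS. Both siUXT values exceed the other 4, though the share of all loci that do was not counted. Under PBS its ratio to NC of 1.53 was past 1.5-fold, as were 4.11% of loci on the higher side, and with size factors its log2 ratio of 0.61 became 0.56, under the 1.5-fold line. Under TNF the ratio was 1.10. The limma estimate was 0.37 (95% interval -0.07 to 0.82, Benjamini-Hochberg adjusted p = 0.91), and 0.26 without siUXT PBS.

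PFDN6, the other shared beta subunit, was listed at 0 in all 6 libraries. Its level cannot be read from these tables. Of the 10 protein-coding genes on each side of it in RefSeq, 19 were listed and 8 of those were also at 0 in every library, against 18.4% of 18845 protein-coding symbols. RPS18, a ribosomal protein gene in that stretch that every cell needs, was at 0.313 FPKM in siUXT PBS and listed at 0 in the other 5 libraries.

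The UXT level relative to PFDN2 and to PDRG1 was lower in both siUXT libraries than in the others, a ratio within a library that does not depend on scaling. UXT over PFDN2 was 0.188 in siUXT TNF and 0.193 in siUXT PBS, 0.864 in siEZH1 TNF and 0.649 in siEZH1 PBS, and 0.503 in NC TNF and 0.662 in NC PBS. UXT over PDRG1 was 0.878 and 0.796 in siUXT TNF and siUXT PBS, against 1.83 and 1.92 in NC TNF and NC PBS. The same held for UXT over PFDN1 and over PFDN5. UXT over URI1 behaved differently, at 1.74 in siUXT TNF but 4.05 in siUXT PBS. It was 4.81 in siEZH1 TNF and 3.59 in siEZH1 PBS, and 5.74 in NC TNF and 4.72 in NC PBS. UXT over PFDN4 and over VBP1 were lowest in siUXT TNF, at 2.70 and 0.531, and highest in siUXT PBS, at 18.96 and 1.79.

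Of the subunits found in canonical prefoldin alone, PFDN4 and VBP1 were low in siUXT PBS, whereas PFDN1 and PFDN5 were not. PFDN4, a beta subunit, was at 9.09 FPKM in siUXT TNF and 1.46 in siUXT PBS, at 8.87 in siEZH1 TNF and 11.7 in siEZH1 PBS, and at 7.19 in NC TNF and 8.30 in NC PBS. The siUXT PBS value is the lowest of the 6 by far, and siUXT TNF lies above both NC libraries. The log2 ratio to NC was 0.30 under TNF and -1.92 under PBS, where 76 of 11845 loci had a lower one.

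VBP1, an alpha subunit named as a partner of the von Hippel-Lindau protein, was at 46.2 FPKM in siUXT TNF and 15.5 in siUXT PBS, at 50.2 in siEZH1 TNF and 56.1 in siEZH1 PBS, and at 33.9 in NC TNF and 44.7 in NC PBS. It followed PFDN4: lowest in siUXT PBS, and above both NC values in siUXT TNF. Its log2 ratio to NC was 0.44 under TNF and -1.47 under PBS, where 215 loci had a lower one.

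Neither gene was called over both treatments. The limma estimates for siUXT were -0.81 for PFDN4 (SE 0.56, Benjamini-Hochberg adjusted p = 0.91) and -0.52 for VBP1 (SE 0.44, adjusted p = 0.91). Without siUXT PBS they were 0.35 and 0.38, and without siUXT TNF they were -1.96 and -1.42. The lower values therefore stand on the siUXT PBS library.

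PFDN5, an alpha subunit also known as the MYC-binding protein MM-1, was at 201 FPKM in siUXT TNF and 231 in siUXT PBS, at 189 in siEZH1 TNF and 205 in siEZH1 PBS, and at 153 in NC TNF and 181 in NC PBS. All 4 knockdown libraries lie above both NC libraries, though the share of all loci that do was not counted. Its log2 ratio for siUXT was 0.39 under TNF and 0.35 under PBS, the closest agreement between treatments of the 8 members. The limma estimate was 0.37 for siUXT (95% interval 0.03 to 0.71, unadjusted p = 0.039, Benjamini-Hochberg adjusted p = 0.91) and 0.24 for siEZH1 (95% interval -0.10 to 0.58, adjusted p = 0.63). For siUXT it was 0.36 without siUXT PBS and 0.38 without siUXT TNF, and whether PFDN5 was called depended on the library left out.

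PFDN1, a beta subunit whose values are shared with the symbol AX748200, was the steadiest member. PFDN1 and PFDN4 have pseudogenes in RefSeq, so reads may be shared with them. It lay between 38.3 FPKM in siEZH1 PBS and 46.4 in NC TNF, with 41.6 in siUXT TNF and 44.9 in siUXT PBS. Its coefficient of variation over the 6 libraries was 8.12%, against 44.1% for PFDN4, 40.7% for UXT and 35.3% for VBP1. The limma estimate for siUXT was 0.01 (95% interval -0.42 to 0.43; Benjamini-Hochberg adjusted p = 1.00), and its sign turned to -0.03 with size factors and to -0.10 without siUXT PBS.

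**Figure D2:**
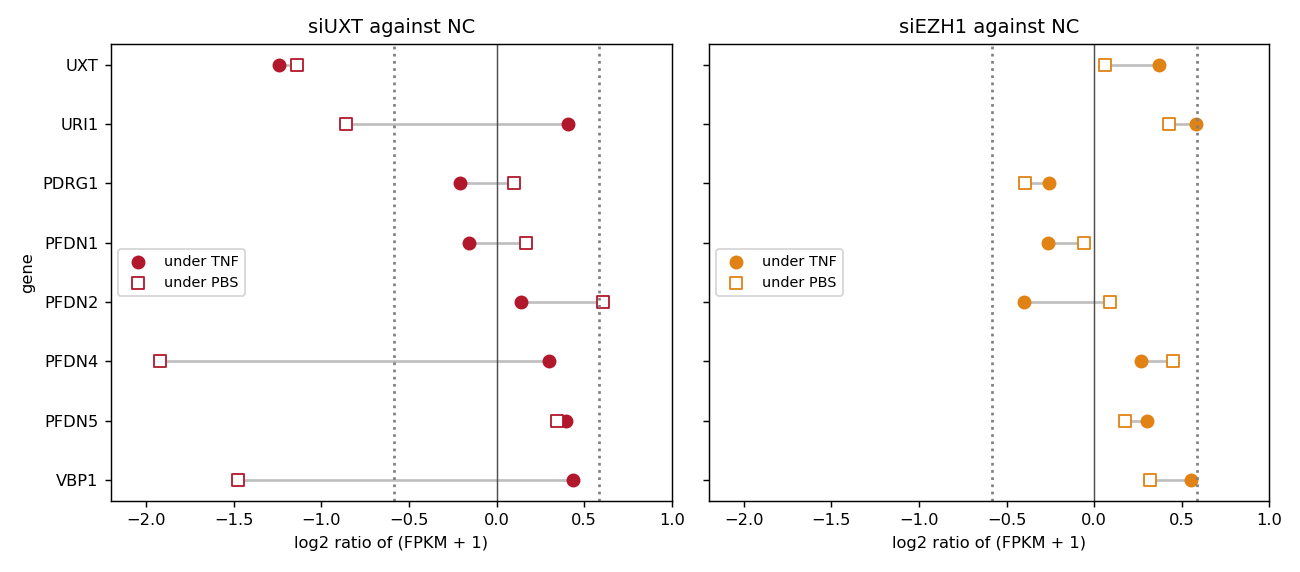
Log2 ratio of (FPKM + 1) to the NC library of the same treatment for each member (rows), for siUXT on the left and siEZH1 on the right. Filled circles are the TNF pair, open squares the PBS pair, 1 library per condition, and dotted lines mark 1.5-fold; UXT is left of the line in both siUXT pairs, and PFDN4, VBP1 and URI1 in the PBS pair.

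In counts, 1 of the 8 members above 0 (UXT) was at least 1.5-fold lower and 0 higher in siUXT under TNF, where 3.06% and 3.12% of all loci were. Under PBS, 4 members were lower (PFDN4, VBP1, UXT and URI1) and PFDN2 higher, beside 16.4% and 4.11% of all loci. The median log2 ratio of the members was 0.22 under TNF and -0.38 under PBS, beside 0.01 and 0.04 over all loci. The summed FPKM of PFDN1, PFDN2, PFDN4, PFDN5 and VBP1 was 428 in siUXT TNF and 436 in siUXT PBS, against 359 in NC TNF and 368 in NC PBS. It was also above NC in siEZH1, at 376 under TNF and 411 under PBS. PFDN5 and PFDN2, the members with the highest levels, weigh most in it. For UXT, URI1 and PDRG1 the sum was 66.6 in siUXT TNF and 69.3 in siUXT PBS, against 102 in NC TNF and 108 in NC PBS. UXT, the siRNA target, is part of that sum, so the sum tells nothing of URI1 or PDRG1 by themselves. Their limma estimates for siUXT were -0.22 and -0.05.

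The siUXT PBS ratios also moved with gene span across loci: Spearman's rho was -0.22 in the PBS pair and 0.19 in the TNF pair, over 11026 protein-coding loci that share the same libraries. Such trends were not limited to siUXT: rho was 0.28 and 0.27 for siEZH1 against NC under TNF and under PBS, and -0.22 for TNF against PBS in NC. The RefSeq spans of the low members were 92956 bases for URI1, 42835 for VBP1 and 11875 for PFDN4, against a median of 30584 over these loci, and PFDN1, which was not low, spans 58067 bases. The part of span or of the library in these values was not tested.

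**Figure D3:**
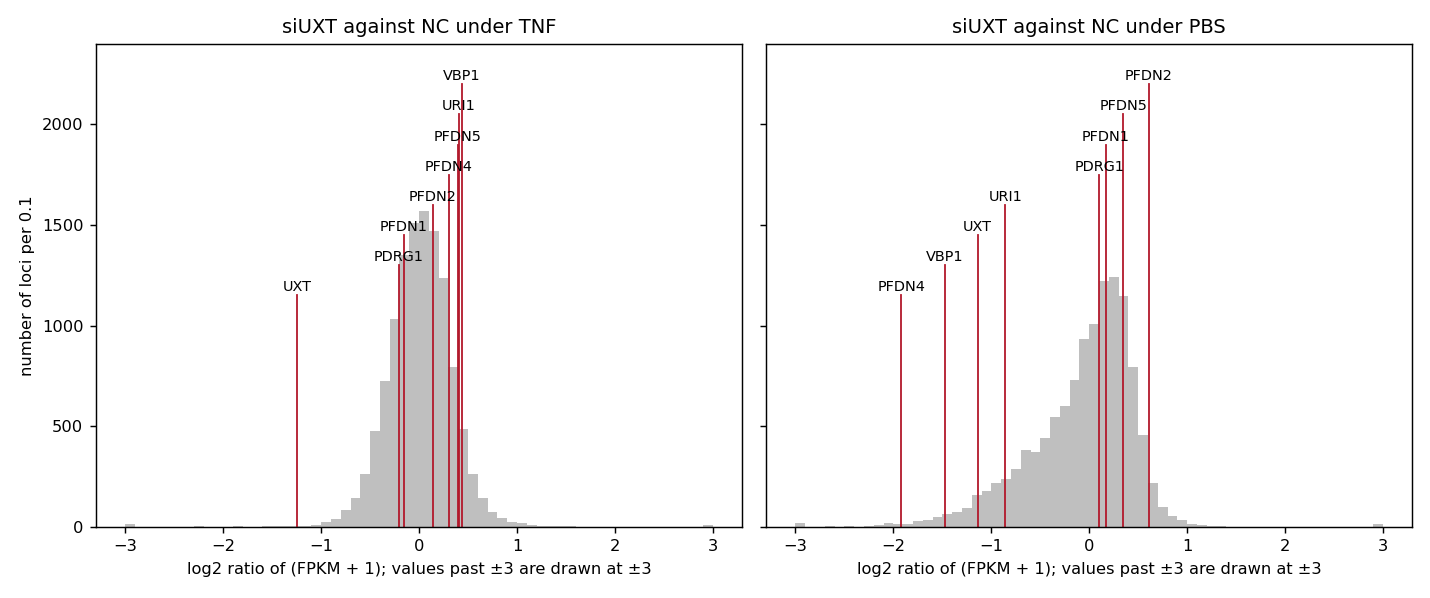
Distribution of log2 ratios of (FPKM + 1) between siUXT and NC over 11845 loci (grey, number of loci per step), under TNF on the left and PBS on the right. Red lines mark the 8 members; UXT lies at -1.24 and -1.14, and PFDN4, VBP1 and URI1 stand in the wide lower tail of the PBS pair.

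In siEZH1 no member was at least 1.5-fold from NC on the log2(FPKM + 1) scale in either treatment; on the higher side 3.71% of loci were under TNF and 2.13% under PBS, and on the lower side 6.05% and 5.15%. URI1 and VBP1 had the highest ratios of the members under TNF, with log2 values of 0.58 and 0.55, and 0.43 and 0.32 under PBS. With a pseudocount of 0.1 the URI1 value under TNF was 0.62, past the 1.5-fold line. PDRG1 was lower in both pairs, at -0.26 under TNF and -0.40 under PBS. UXT itself was at 71.0 ± 8.65 FPKM in siEZH1 against 60.9 ± 1.88 in NC (SD, n = 2 libraries each), a limma estimate of 0.21 (95% interval -0.23 to 0.65; Benjamini-Hochberg adjusted p = 0.68).

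The siEZH1 estimates of the members ran from -0.33 for PDRG1 to 0.51 for URI1, and none was called (limma, lowest Benjamini-Hochberg adjusted p = 0.63); over all loci 0% were called higher and 0.0169% lower. With only NC and siEZH1 libraries kept, limma called URI1, VBP1 and PFDN5 higher and PDRG1 lower (adjusted p = 0.0158, 0.0163, 0.0381 and 0.0294). In that fit 1377 of 11845 loci were called higher and 1724 lower, so calls were common. The estimates of these members were the same as with all libraries.

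TNF did not separate the members from PBS in a shared direction. In NC the log2 ratio of TNF to PBS ran from -0.39 for VBP1 to 0.33 for PFDN2, and in siEZH1 from -0.36 for PFDN4 to 0.25 for UXT, with no member at least 1.5-fold apart; 3.4% and 3.22% of loci were that much higher there and 1.98% and 1.35% lower. In siUXT, URI1, PFDN4 and VBP1 were at least 1.5-fold higher under TNF than under PBS, with log2 ratios of 0.95, 2.04 and 1.52, beside 16.8% of all loci, and no member was that much lower, beside 3.61%. UXT was at -0.17 in siUXT, 0.25 in siEZH1 and -0.06 in NC. Limma's TNF estimate was 0.01 for UXT (95% interval -0.35 to 0.36) and 0.50 for PFDN4 (95% interval -0.60 to 1.598), with a Benjamini-Hochberg adjusted p of 1.00 for every member, while 0.405% of loci were called higher and 0.00844% lower. Without siUXT PBS the TNF estimate was -0.27 for PFDN4, -0.27 for VBP1 and -0.24 for URI1 (limma adjusted p = 0.20, 0.13 and 0.20), against 0.50, 0.32 and 0.15 with it.

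**Figure D4:**
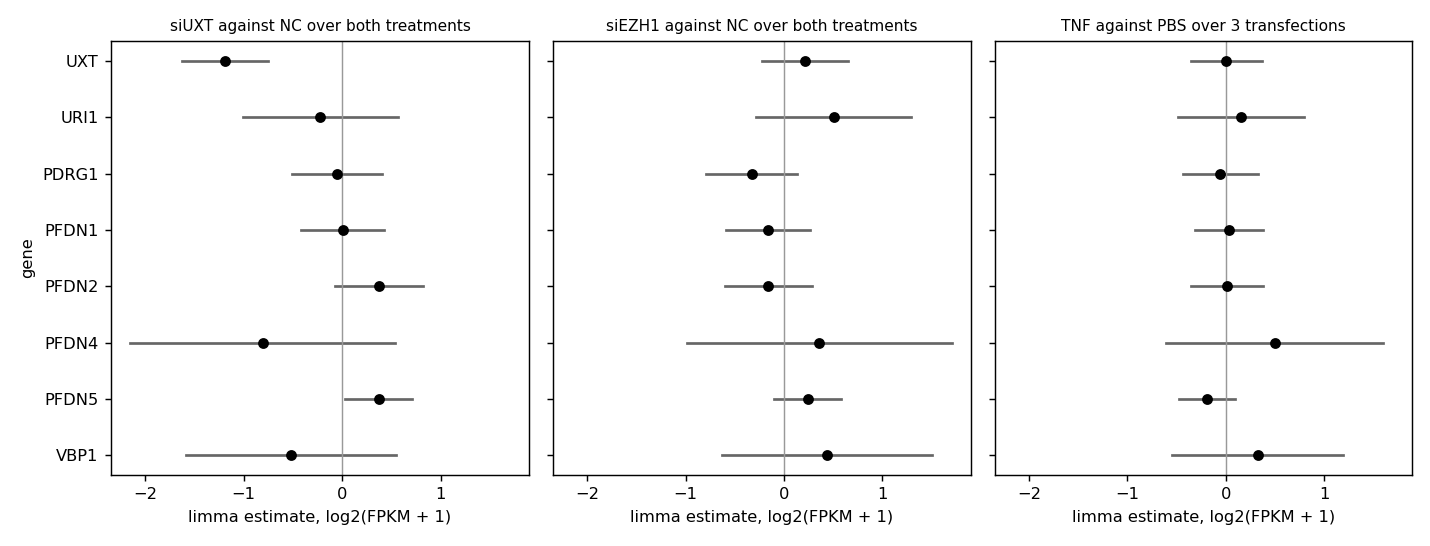
Limma estimates on the log2(FPKM + 1) scale (points) with 95% intervals (lines) for 8 members, for siUXT against NC, siEZH1 against NC and TNF against PBS over the 6 libraries. The intervals of UXT (-1.63 to -0.75) and PFDN5 (0.03 to 0.71) for siUXT leave out 0, and PFDN4 and VBP1 have the widest intervals in each panel.

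The order of the members by level was stable at its ends. PFDN5 was highest, PFDN2 next, URI1 at rank 7 and PFDN4 at rank 8 in every library, with means over the 6 libraries of 193, 113, 13.1 and 7.76 FPKM. The middle 4 (UXT, PFDN1, VBP1 and PDRG1, with means of 52.7, 41.6, 41.1 and 29.8 FPKM) changed places, and their ranges over the libraries overlapped except those of PFDN1 and PDRG1. UXT held rank 6 in siUXT TNF, rank 5 in siUXT PBS and rank 3 in the other 4 libraries, and VBP1 held rank 3 in siUXT TNF and rank 6 in siUXT PBS.

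The protein-coding genes with the pattern most like that of UXT, by Euclidean distance between centred log2(FPKM + 1) values over the 6 libraries, were FAM72A, SLC25A13, PIP4K2A, RGS4 and PERP, at distances of 0.51 to 0.73. SLC25A13, a mitochondrial aspartate-glutamate carrier, was at 4.51 and 3.94 FPKM in siUXT TNF and siUXT PBS, against 7.13 and 7.11 in NC TNF and NC PBS. PERP, a desmosome-associated p53 target, was at 31.0 and 22.8 FPKM in siUXT TNF and siUXT PBS, against 46.4 and 42.9 in NC TNF and NC PBS. Lower siUXT values in these genes follow from picking them by likeness to UXT over the same 6 libraries. No other member came near: URI1 was closest to UXT at rank 1731 of 10077 loci and PFDN2 farthest at rank 9571. For PFDN4, the most variable other member, the nearest genes were CMPK1, TATDN1, NAA50, SMARCAD1 and SEPT7, at distances of 0.17 to 0.20. Their Pearson correlations with PFDN4 were 0.996 to 0.999 over the 6 libraries. Values this high follow from picking the genes on the same libraries. All 5 were lowest in siUXT PBS: CMPK1, a pyrimidine nucleotide kinase, was at 8.48 FPKM there and 36.9 in NC PBS. Under TNF its level was 37.1 FPKM with siUXT and 27.6 with NC. VBP1 came at rank 123.

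Partners of the prefoldin-like complex in R2TP and beyond were mostly near NC. Of 7 partners, 0 were at least 1.5-fold from NC in siUXT TNF, where 3.12% of all loci were higher and 3.06% lower. In siUXT PBS 2 were lower, beside 16.4% of all loci: RPAP3, the R2TP scaffold that binds HSP90, at 2.19 FPKM with 5.92 in NC PBS, and ASNSD1, whose transcript also encodes a prefoldin-like subunit, at 11.01 with 20.1 in NC PBS. Under TNF RPAP3 was at 7.15 FPKM in siUXT and 6.48 in NC, and ASNSD1 at 18.8 in siUXT and 18.9 in NC. In siEZH1 PBS RPAP3 was higher, at 9.53 FPKM, beside 2.13% of all loci. RUVBL2, an AAA ATPase of R2TP, was at 129 FPKM in siUXT TNF and 158 in siUXT PBS, against 137 in NC TNF and 118 in NC PBS. POLR2E, the shared polymerase subunit that URI1 binds, had log2 ratios of -0.50 under each treatment in siEZH1. The list's median log2 ratio in siUXT was 0.11 under TNF and 0.22 under PBS, beside 0.01 and 0.04 over all loci.

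The 8 CCT subunit genes, which form the chaperonin that receives clients from prefoldin, were all above NC in siUXT TNF (median log2 ratio 0.30, highest 0.38) and 3 of 8 in siUXT PBS (median -0.22), where the medians over all loci were 0.015 and 0.041. CCT8 was the member past 1.5-fold, lower in siUXT PBS as were 16.4% of all loci, with 100.2 FPKM there and 204 in NC PBS, but 202 in siUXT TNF and 155 in NC TNF. In siEZH1 7 of 8 were above NC under TNF and 8 of 8 under PBS, with medians of 0.36 and 0.23, beside 0.024 and 0.0044 over all loci. CCT6A had the highest ratio there, at 144 FPKM in siEZH1 TNF against 97.4 in NC TNF. Both TNF pairs use the NC TNF library, where 7 of 8 CCT genes were below NC PBS (median log2 ratio -0.21, beside -0.02 over all loci).

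Tubulins and actins are the clients of prefoldin, and 12 of 13 such genes could be tested, while TUBB2B was listed at 0. In siUXT 10 of 12 were below NC under TNF (median log2 ratio -0.29) but 3 of 12 under PBS (median 0.15), and in siEZH1 11 and 9 of 12 were (medians -0.20 and -0.13). The medians over all loci in these pairs lay between 0.0044 and 0.041. Both TNF pairs use the NC TNF library, where 10 of 12 clients were above NC PBS (median log2 ratio 0.14, beside -0.02 over all loci). TUBA1C was the client past 1.5-fold, lower in siUXT TNF and siEZH1 TNF beside 3.06% and 6.05% of all loci, at 741 FPKM in siUXT TNF and 636 in siEZH1 TNF against 1539 in NC TNF; the other 3 libraries lay between 619 and 869, so NC TNF is the library that stands apart for it. Alpha-tubulin genes are near copies, and reads may be split between them. TUBB2A was higher in each TNF library than in any PBS library, though the share of all loci that were was not counted. Limma did not call it (estimate 0.65, SE 0.14, Benjamini-Hochberg adjusted p = 0.29). It was at 34.0 FPKM in siUXT TNF, 41.8 in siEZH1 TNF and 45.1 in NC TNF, against 22.4, 27.2 and 25.9 FPKM in siUXT PBS, siEZH1 PBS and NC PBS. TUBA4A and TUBB3 were higher in siUXT PBS than in any other library, at 70.9 and 152 FPKM against 48.4 and 110.5 in NC PBS. Under TNF they were at 45.6 and 98.1 FPKM in siUXT against 51.3 and 97.3 in NC. The TUBB3 values are shared with the symbol MC1R, so they cannot be assigned to TUBB3 alone.

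Among 5 tubulin folding cofactors TBCA, which binds beta-tubulin, was past 1.5-fold in siUXT PBS, where 16.4% of all loci were that much lower, with 68.9 FPKM in siUXT PBS and 140.2 in NC PBS, but 140.0 in siUXT TNF and 134 in NC TNF. TBCB, an alpha-tubulin cofactor, was at 51.0 FPKM in siUXT TNF and 63.6 in siUXT PBS, against 58.2 and 49.5 in NC TNF and NC PBS. Of the genes tied to UXT by the series title and their partners, SUZ12 and EED, subunits of Polycomb repressive complex 2, were 2 of 5 past 1.5-fold lower in the same library, with log2 ratios to NC of 0.13 and 0.32 in siUXT TNF and of -1.82 and -1.07 in siUXT PBS. In siEZH1 both were higher than in NC, with SUZ12 past 1.5-fold under PBS, beside 2.13% of all loci, at 25.9 FPKM in siEZH1 PBS and 16.4 FPKM in NC PBS. EZH1, the target of the other siRNA, was at 4.14 FPKM in siEZH1 TNF and 4.05 in siEZH1 PBS, at 6.23 in siUXT TNF and 6.27 in siUXT PBS, and at 5.12 in NC TNF and 5.45 in NC PBS. Both siEZH1 values are below the other 4, by less than 1.5-fold from NC, and the siUXT values are the highest. RELA, which encodes p65, had log2 ratios of -0.13 in siUXT TNF and 0.23 in siUXT PBS. In limma's fit over 6 libraries 0 members of these 5 lists were called for siUXT, siEZH1 or TNF, with lowest Benjamini-Hochberg adjusted p values of 0.91, 0.60 and 0.29.

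**Figure D5:**
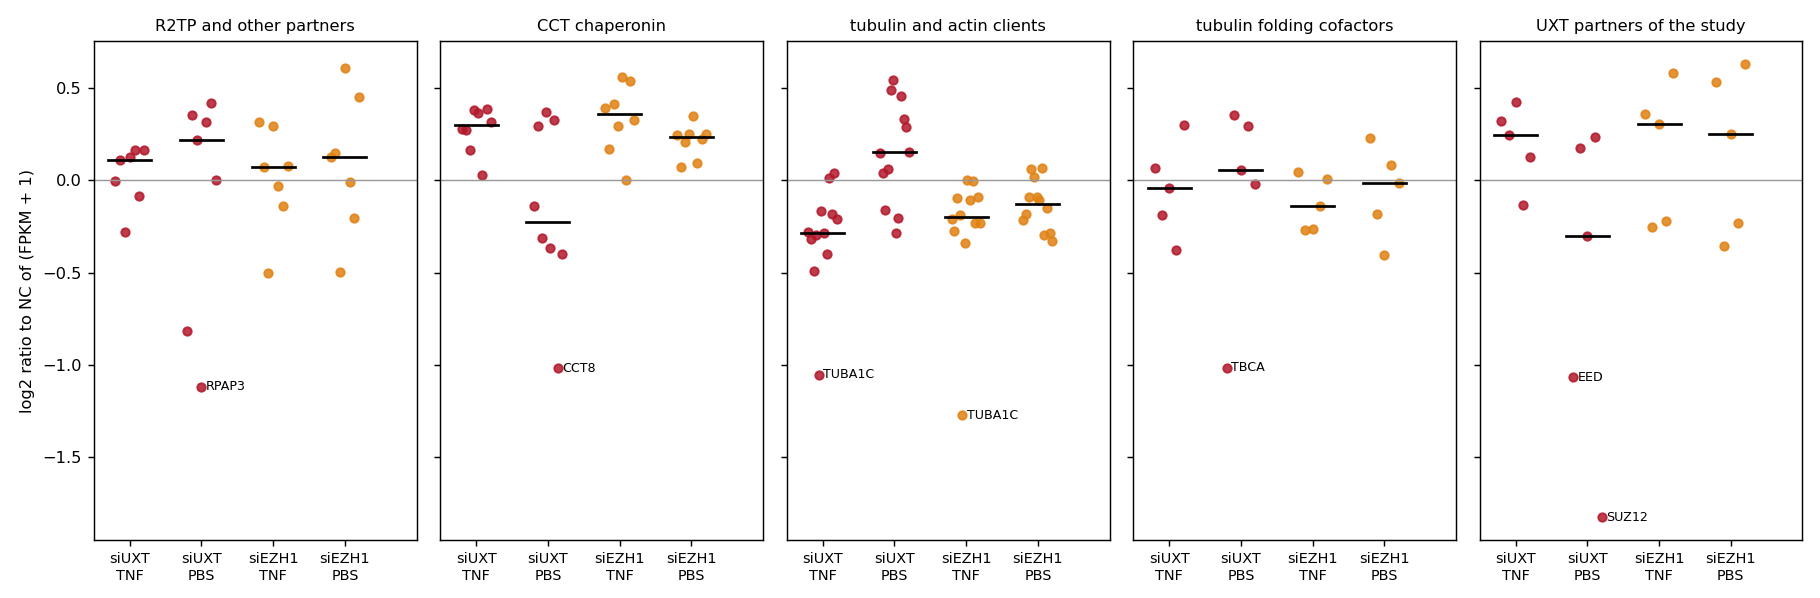
Log2 ratio of (FPKM + 1) to the NC library of the same treatment for genes of 5 partner lists (points, 1 gene each; bars are list medians), in siUXT TNF, siUXT PBS, siEZH1 TNF and siEZH1 PBS from left to right. RPAP3, CCT8, TBCA, EED and SUZ12 lie at or below -1.02 in siUXT PBS alone, and TUBA1C is low in both TNF pairs.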

How the data were processed

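RNA-seq of 6 HCT116 libraries was analysed, 1 per condition. The authors deposited FPKM for each symbol. Per the submitters' processing notes, FastQC, cutadapt, TopHat2 and Bowtie are among the tools and hg19 is the build; versions, annotation, strand setting and the program that made the FPKM are not given there. Poly(A) RNA was used, per the labels' protocols.

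Symbols whose 6 values matched exactly were treated as 1 locus, and the 11845 loci averaging 1 FPKM or more were tested as log2(FPKM + 1), which understates changes of low genes. Limma 3.58.1 (R 4.3.3, eBayes with trend) fitted transfection and treatment additively, with 2 residual degrees of freedom, 4.42 prior degrees of freedom and Benjamini-Hochberg adjustment over all loci at 0.05. The error of a knockdown is thus its difference between treatments. The labels do not name separate cultures, so p-values measure only the spread between these libraries, which may be technical. Single pairs of libraries have no test, and at least 1.5-fold was counted. Where the values of a group lie apart from the rest, the share of all loci that do so was not counted. On simulated data, changes were placed in the siUXT libraries alone and read at loci with higher levels. The fit recovered their size, and it called them at a small fixed spread but called none at each locus's own residual spread. A missing siUXT call therefore says little. Changes for siEZH1 and TNF were not simulated. Alternatives were a pseudocount of 0.1, no filter, median-of-ratios size factors, eBayes without trend, fewer groups and each library left out. Python 3.11.15 with pandas 2.3.3 did the rest.

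Members, gene lists and tests were chosen with earlier results of these data known. Named genes were the members, UXT-AS1, up to 4 genes per partner list with the largest ranges over the libraries, and the 5 genes nearest to UXT and to the most variable other member; EZH1, RPS18 and the motifs were chosen after values were seen. RefSeq (GRCh38.p14) gave names, spans, neighbours and promoters; 23579 of 28502 symbols matched it.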

Additional observations from a re-analysis of the deposited data

Results flagged for a closer look

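For 9 genes the siUXT libraries differed from NC in opposite directions under TNF and under PBS, by at least 1.5-fold in at least 1 of them; with 1 library per condition none of these differences was tested. The difference of the log2 ratio, TNF minus PBS, was 2.22 for PFDN4, 1.91 for VBP1 and 1.27 for URI1 among the members. Among the partners it was 1.95 for SUZ12, 1.40 for CCT8, 1.39 for EED, 1.24 for RPAP3 and 1.08 for TBCA, each low in siUXT PBS. These 9 are 20% of the 45 members and partner genes tested, beside 15.4% of all 11845 loci by the same rule. Counting any difference of at least 1.5-fold between the ratios, 15 of the 45 met it (33.3%), beside 33.6% of all loci, so the genes described here were near the background of that library. TUBA1C went the other way, at -1.54 for siUXT and -1.29 for siEZH1, where 1 of the 45 genes and 1.72% of all loci met the rule; both use the NC TNF library, where it was at 1539 FPKM.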

How the results depend on the processing

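No paired analysis was possible because the labels carry no replicate numbers to pair by, beyond the matching the fit already holds, which compares transfections within treatment and treatments within transfection. Without the transfection term TNF gave 54 calls. Limma's calls rested on few degrees of freedom and on which libraries entered. Leaving out each library in turn gave 46 to 3604 called loci for siUXT (5 with all), 42 to 3132 for siEZH1 (2 with all) and 126 to 328 for TNF (49 with all); the siUXT extreme came without siUXT TNF, and for siEZH1 and TNF the highest counts came without a siUXT library. With a pseudocount of 0.1, limma called 0 loci for siUXT (419 at an unadjusted p under 0.05). Only NC and siUXT libraries gave 65 calls, only NC and siEZH1 libraries 3101, and no filter 23 for TNF. The counts of loci at least 1.5-fold apart with a pseudocount of 0.1 were 1213 for siUXT under TNF (732 with 1), 1827 and 1408 for siEZH1 under TNF and PBS (1156 and 862), and 932 and 1087 for TNF in siEZH1 and NC (542 and 637). The cause of these moves was not tested. With a library left out, 1 residual degree of freedom remains and the lone library of a transfection is assumed to vary like the others.

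The UXT, UXT-AS1, PFDN2 and PFDN5 estimates for siUXT kept their direction in all fits run, UXT-AS1 at -3.67 with a pseudocount of 0.1. Member estimates whose sign turned when 1 library was left out, with their ranges over the 6 such fits, were for siUXT URI1 (-0.82 to 0.37), PDRG1 (-0.24 to 0.14), PFDN1 (-0.12 to 0.14), PFDN4 (-1.96 to 0.35) and VBP1 (-1.42 to 0.38). For siEZH1 they were PFDN2 (-0.40 to 0.084), PFDN4 (-0.29 to 1.00) and VBP1 (-0.10 to 0.97). For TNF they were UXT (-0.11 to 0.092), URI1 (-0.24 to 0.39), PDRG1 (-0.15 to 0.073), PFDN1 (-0.051 to 0.11), PFDN2 (-0.15 to 0.10), PFDN4 (-0.27 to 0.93), VBP1 (-0.27 to 0.68) and UXT-AS1 (-0.013 to 0.33). With size factors the PFDN1 estimate for siUXT was -0.030. The number of reads behind each value is unknown, which limits low genes such as PFDN4 in siUXT PBS and UXT-AS1 most.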
